A study of Saccharomyces cerevisiae with 12 samples.

Results

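Growing yeast was exposed to Congo Red, a chitin-binding dye that hinders the building of the cell wall, and 56 array spots were followed whose transcription stood higher relative to the typical spot late in the exposure while their mRNA kept level with it. The 56 spots were selected on measured values in the authors' deposited table, which lists for each spot and time how abundant the mRNA was (RA) and how fast it was made, its synthesis rate (SR). For each measure, the log2 ratio to 0 min was taken and its median over spots was subtracted, and the mean of the 120, 180 and 240 min values was called S for SR and D for RA. Of the 6144 spots of the array, 4468 had all 12 table values and 3574 of those lay above the 20th percentile of mean RA. The members are the spots among the 300 highest S whose D lay between -0.2 and 0.2. They make up 18.7% of the 300, of which another 222 had a D above 0.2 and 22 a D below -0.2.

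The cells were Saccharomyces cerevisiae BY4741, a haploid laboratory strain labelled wild type, in rich glucose medium at 24 °C. They were sampled just before 30 µg/ml of Congo Red was added (0 min) and after 30, 60, 120, 180 and 240 min with it. At each time mRNA abundance was read on cDNA arrays and nascent transcription on genomic run-on arrays, with 3 replicate arrays for each of the 12 groups and 36 arrays in all. The series analysed here has no culture kept without the dye after 0 min, so the dye and the time in culture cannot be told apart, and nothing in the labels tells whether the replicates came from separate cultures. The p-values therefore cover only the spread among these arrays, which could be technical.

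The amount of an mRNA in a cell is set by how fast it is made and how fast it is degraded. In a run-on assay, permeabilised cells extend the transcripts their RNA polymerases had already begun while a labelled nucleotide is present, so the signal follows the polymerases engaged on a gene and not the mRNA that has accumulated. Reading both shows where transcription and abundance part. In yeast, a change in synthesis that is met by an opposite change in mRNA stability, so that abundance moves less than synthesis does, is known as transcript buffering. Cell wall damage in yeast is sensed at the plasma membrane and relayed through the cell wall integrity pathway, a MAP kinase cascade that switches on genes for wall construction.

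The deposited files identify a spot by its place on the array only. They were looked up among 6477 yeast genes of a RefSeq table with 0 matches, and no member could be given a gene name, a role or a sequence. A spot is written here as the row and column of its block, followed by its printing position within the block. The members that are identified in this way are the pair with the highest S and the pair whose nascent signal changed most downward from 120 to 240 min. The other members are given by counts and ranges.

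The S of the members had a median of 0.68 (log2), with quartiles of 0.55 and 0.84 and a highest value of 1.94, and 7 members had an S of 1 or more. The lowest S among them was 0.499, and the next spot outside the 300 with D in the window had 0.495. Their D had a median of 0.03, and 32 of the 56 lay above 0. The highest D among members was 0.199 and the next above the window was 0.217, while the lowest was -0.183 and the next below the window was -0.216. The lowest mean RA of a member was 0.488 against a threshold of 0.473. S and D were correlated with r = 0.60 over the 3574 spots and r = 0.02 over the members. These are the values that chose the members and are given as a description.

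**Figure D1:**
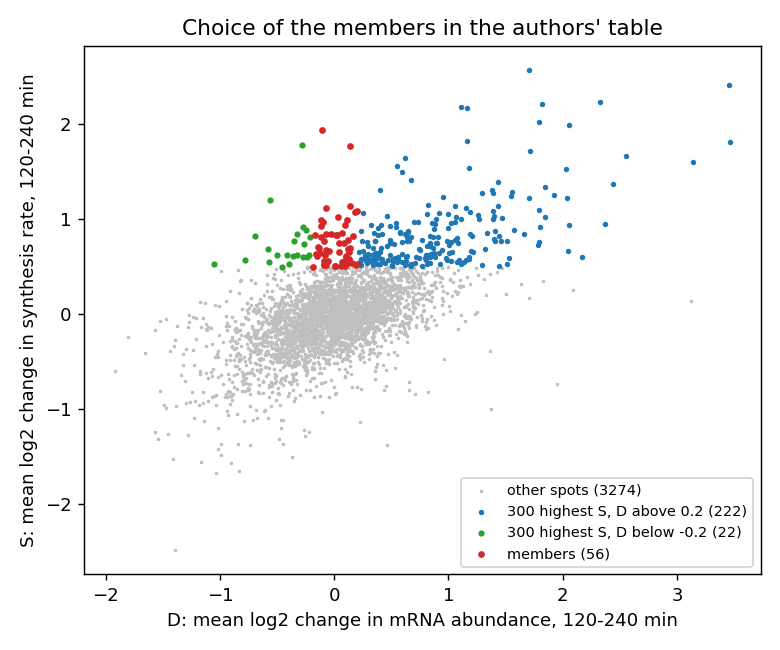
Mean late change in synthesis rate (S, vertical) against mean late change in mRNA abundance (D, horizontal), both log2 and relative to the median spot, for the 3574 spots in the authors' table. The 56 members lie in a narrow upright band at D near 0, and most of the 300 highest S lie to its right, with D above 0.2.

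Over the time course in the authors' deposited table, the median synthesis rate of the members was above the typical spot at 30 and 60 min. It rose further by 120 min and then held level, while the median mRNA abundance stayed with the typical spot throughout. The median SR change of the members relative to the median spot was, in the order of the 5 times after 0 min, 0.31, 0.37, 0.68, 0.69 and 0.67 (log2). The median RA change was, in the same order, -0.00, -0.00, -0.02, -0.02 and 0.07. Neither the 30 min nor the 60 min value entered S or D, although both share the 0 min value with them. SR lay above the typical spot in 46 members at 30 min and in 55 at 60 min, and 45 members were above it at all 5 times. A change of 0.5 or more was reached by 17 members at 30 min and 22 at 60 min, and by 44, 45 and 46 members at the late times. The members did not share a time of highest late SR, which was 120 min in 20, 180 min in 15 and 240 min in 21.

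Because D is a mean over 3 times, it lets abundance vary within it. The RA change stayed within 0.2 of the typical spot at all 3 late times in 24 of the 56 members and at all 5 times in 11. At a late time 1 member went outside 0.5.

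**Figure D2:**
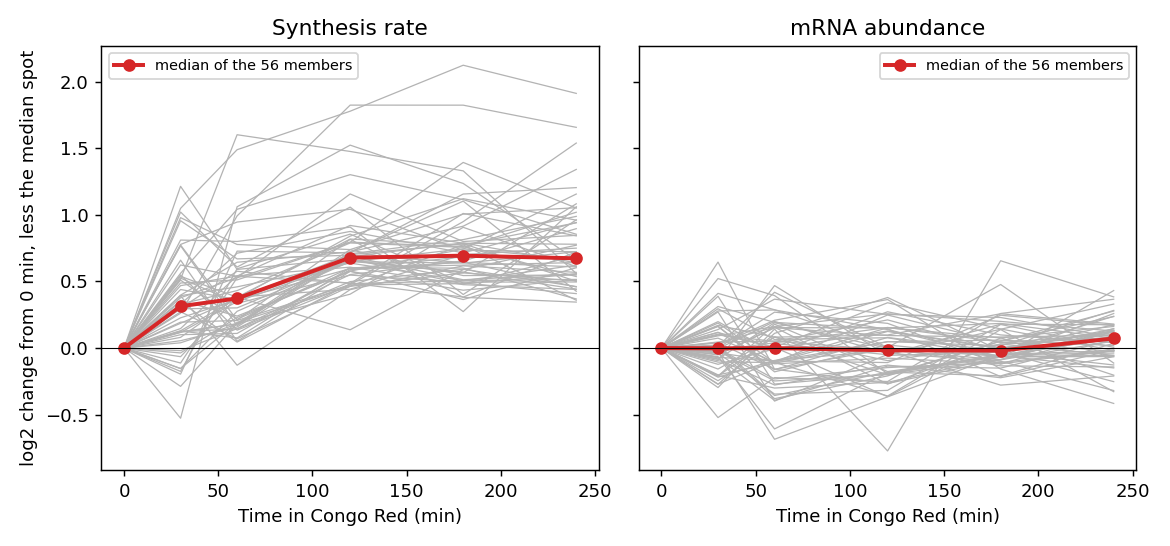
Change from 0 min (log2, less the median spot) in synthesis rate (left) and mRNA abundance (right) against time in Congo Red, in the authors' table. Thin lines are the 56 members and the thick line is their median, which climbs to 0.68 by 120 min on the left and stays between -0.02 and 0.07 on the right.

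Without the subtraction of the median spot, the table gives another view of the same members. In the table's units, the synthesis rate of the typical spot went down, and that of the members went down less and later. The late values include a factor for cell volume, which is taken up below. The median SR of the members, as a ratio to its 0 min value, was 1.23, 1.22, 1.28, 0.957 and 0.904 in the order of the 5 later times. Over the 3574 spots the same medians were 0.991, 0.940, 0.799, 0.592 and 0.567. The SR of 55 members was above its own 0 min value at 120 min, but that of only 22 was at 180 min and of 20 at 240 min, against 17.3%, 4.31% and 3.41% of all spots. At 30 and 60 min it had been above it in 46 and 51 members, against 47.8% and 35.8% of the 3574 spots. The rate of most members thus stood above its own start until 120 min. At 180 and 240 min most members were at or below their starting rate, and their higher synthesis was one relative to the other spots.

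Their mRNA did not keep its starting level in the table either. The median RA of the members, as a ratio to 0 min, was 1.03, 1.02, 0.736, 0.650 and 0.664, and over all spots it was 1.03, 1.02, 0.744, 0.658 and 0.632. RA lay below its 0 min value in all 56 members at 120 and 240 min and in 55 at 180 min. In the table's own units the mRNA of the members was thus below its start at the late times, with synthesis above its start at 120 min and near it at 180 and 240 min. How the authors scaled the table between times is not stated in the sources read here, nor is whether RA carries a factor for volume.

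Cell volume enters these ratios. The authors took cell volume into account with a factor that was 1 up to 60 min and then 1.17, 1.44 and 1.65 for the late times in order, and the SR was read here as the rate divided by that factor. Multiplied back, the rate was above its 0 min value in all 56 members at each late time, with medians of 1.496, 1.38 and 1.49 at 120, 180 and 240 min. The factor is the same for every spot of a time, so it drops out of S. Multiplying back raises the ratios of all spots alike, so part of the late fall of the typical spot given above is the division by this factor. The share of all spots above their 0 min value after multiplying back is not given here. The members were chosen for a high late SR, so the count of 56 is a description of the choice.

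The ratio of SR to RA measures how much is being made for each unit of mRNA present, and in a steady state it follows the rate of decay. Decay itself was not measured. Relative to 0 min, the median ratio in the members was 1.14, 1.27, 1.78, 1.44 and 1.40 in the order of the 5 later times. Over the 3574 spots the same medians were 0.970, 0.919, 1.05, 0.892 and 0.896. The members thus made more for each unit of mRNA present than at the start, in the table's units, while the typical spot stayed near its starting ratio. S and D fix the late values of this ratio, so they are a description of the choice.

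The other spots among the 300 highest S show what the members were set apart from. The 222 with a D above 0.2 had a median S of 0.75, near that of the members, and a median D of 0.82. Their mRNA was already above the typical spot early, with a median RA change of 0.38 at 30 min and 0.53 at 60 min, against a median SR change of 0.29 and 0.51. The 22 with a D below -0.2 had a median S of 0.62 and median RA changes of -0.21 at 30 min and -0.33 at 60 min. The early RA changes share the 0 min value with D and were not tested.

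The replicate arrays show how far single members can be followed. The log2 intensities were quantile normalised within each assay, which makes every value relative to its array, and changes were tested with limma in all spots at once. The plainest case is spot R10 - C13 : 13, which ranked 2 in S, with an S of 1.77 and a D of 0.14. Its nascent log2 intensity was 5.97, 6.10 and 6.27 on the 3 arrays at 0 min, then 6.19, 6.33 and 6.65 after 30 min, and 6.80, 7.22 and 7.36 after 60 min. The 120 min arrays gave 7.94, 8.06 and 7.89, the 180 min arrays 8.30, 8.14 and 8.04, and the 240 min arrays 7.53, 7.84 and 7.80. The 60 min arrays all lay above the 30 min arrays, and each late array lay above every array of the first 3 times. The 240 min arrays all lay below those at 120 and 180 min.

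Its mRNA moved within the spread of its replicates. The mRNA log2 intensity of R10 - C13 : 13 was 6.54, 6.05 and 6.07 at 0 min, then 6.45, 5.83 and 6.27 after 30 min, and 6.52, 6.27 and 6.29 after 60 min. The 120 min arrays gave 6.245, 6.18 and 6.55, the 180 min arrays 6.67, 6.41 and 6.00, and the 240 min arrays 6.66, 5.90 and 6.08. Its nascent late mean was 1.84 ± 0.14 (SE) above 0 min and its mRNA late mean 0.08 ± 0.20 above it. The nascent change less the mRNA change, 1.76 ± 0.24 (SE), was past the threshold. This was the single spot of the 4805 tested in both assays to be so in the upward direction. With the replicate number as a block, 23 of the 4805 were. The late mean against 0 min is the contrast that the rule used, so these values are a description.

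Spot R11 - C19 : 5 had the highest S of the members, 1.94, with a D of -0.10. Its nascent log2 intensity was 7.80, 8.36 and 9.29 at 0 min, then 9.33, 9.56 and 8.95 after 30 min, and 9.64, 9.40 and 9.71 after 60 min. The 120 min arrays gave 9.99, 9.49 and 10.16, the 180 min arrays 10.05, 10.21 and 9.96, and the 240 min arrays 9.42, 9.14 and 10.44. Replicate 3 at 0 min reached the range of the later arrays, so the groups overlapped.

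The mRNA log2 intensity of R11 - C19 : 5 was 6.68, 6.07 and 5.95 at 0 min, then 6.70, 6.62 and 6.12 after 30 min, and 6.49, 6.17 and 6.30 after 60 min. The 120 min arrays gave 5.71, 5.71 and 5.25, the 180 min arrays 6.80, 5.29 and 5.23, and the 240 min arrays 6.58, 5.64 and 5.27, so that replicate 1 stood above the others at 180 and 240 min. The late nascent change was 1.39 ± 0.29 (SE) and the late mRNA change was -0.51 ± 0.33 (SE), the lowest of the members.

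**Figure D3:**
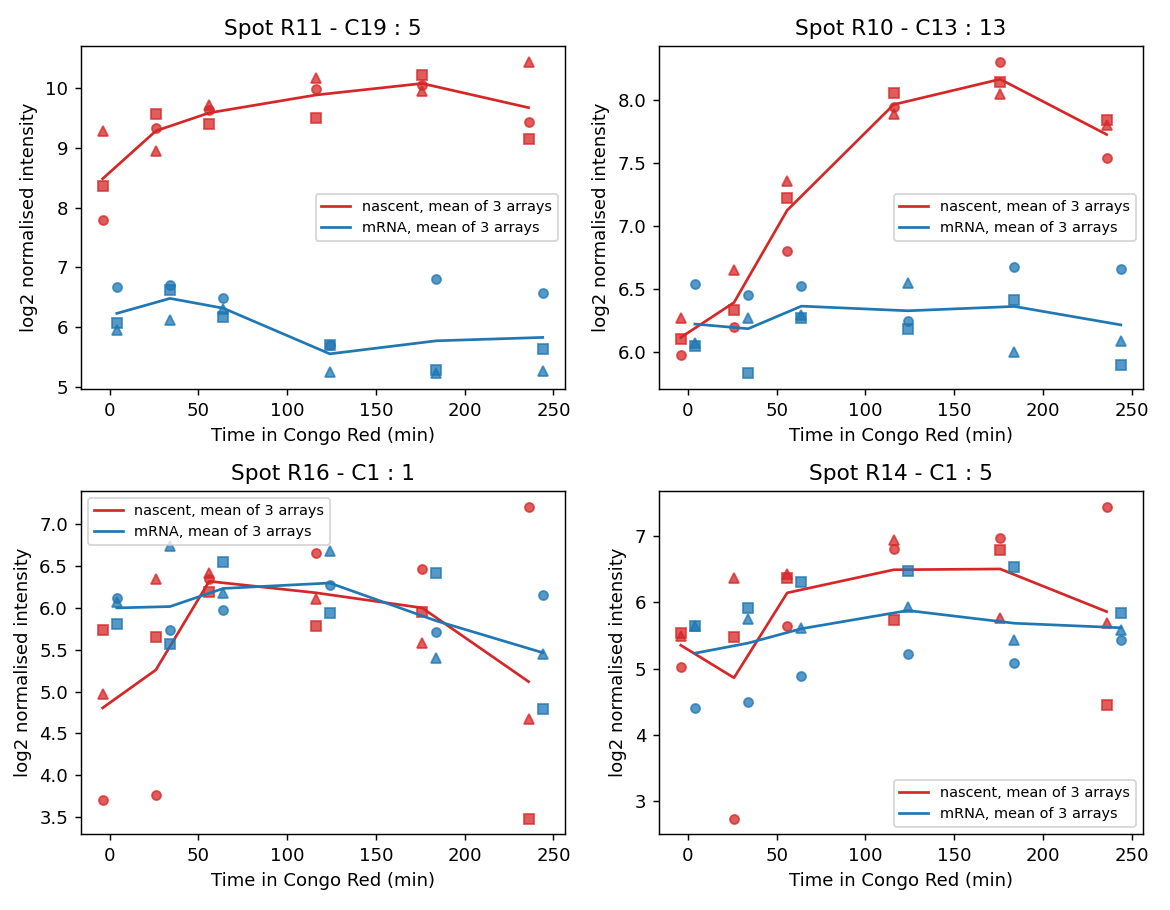
Normalised log2 intensity against time in Congo Red for 4 members, with the nascent arrays in red and the mRNA arrays in blue. Circles, squares and triangles are replicates 1, 2 and 3 and lines join the means of 3 arrays. R10 - C13 : 13 climbs on the nascent arrays up to 180 min and stands lower at 240 min. The pair in block column 1 has widely spread nascent replicates at 30 and 240 min, and R16 - C1 : 1 also at 0 min.

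The change from 30 to 60 min was tested, since neither time entered S or D. The mRNA values of both times did enter the rule through the mean RA, which was taken over all times. The mRNA step is therefore not fully apart from the choice of spots. The test asked whether the members were still moving away from the typical spot early in the response. On the nascent arrays 0 of the 56 members passed (limma, adjusted p under 0.05), and of all 5113 spots tested 0 passed (0%). At an unadjusted p under 0.05 there were 2 members and 125 spots in all. The median change of the members was 0.08, and 36 of the 56 lay above 0. With 1 array left out it ran from 0.03 without the second 30 min array to 0.15 without the first 60 min array. By replicate number the median was 0.10, 0.21 and 0.07. Arrays at 60 min did not overlap those at 30 min in 6 members, all upward, against 7.84% of all spots in either direction and 3.97% upward. For R10 - C13 : 13 the change was 0.73 ± 0.17 (SE, limma adjusted p = 0.999, unadjusted p = 0.000651).

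On the mRNA arrays the same step gave 0 members past the threshold and 0 of 4882 spots (0%), with 0 members and 38 spots at an unadjusted p under 0.05. The median change of the members was -0.08 and 22 lay above 0, but its sign turned to 0.03 both without the first 60 min array, with 34 above 0, and without the third 30 min array, with 31 above 0. No member had 60 min arrays clear of the 30 min arrays (0 of 56), against 3.75% of all spots. The nascent change less the mRNA change was past the threshold in 0 members and in 0 of 4805 spots (0%), and 1 member and 16 spots had an unadjusted p under 0.05. Its median in the members was 0.12, and 38 lay above 0. It ran from -0.01, with 28 above 0, without the first 60 min mRNA array, to 0.25 without the second 30 min mRNA array, and it was 0.04 without the second 30 min nascent array. With the replicate number as a block, the counts past the threshold were again 0 in each of the 3 tests.

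Beside the same step in the rest of the 300, the members had the lower median nascent change. Its median was 0.20 in the 222 spots with a D above 0.2, where 174 lay above 0, and 0.21 in the 22 with a D below -0.2, where 20 did, against a median of 0.00 over the 3574 spots. The median mRNA change was 0.18 in the 222 and -0.02 in the 22. The differences between these groups were not tested. The nascent step also varied with block column over all spots, as given below.

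These tests had limited reach. The 95% confidence interval of a member's change from 30 to 60 min extended a median of 0.63 to either side on the nascent arrays and 0.71 on the mRNA arrays. With the replicate number as a block these were 0.51 and 0.41. In simulated data with known changes, a change of 2-fold was recovered for 44% of altered spots on the nascent arrays and 28% on the mRNA arrays, and one of 4-fold for 81% and 77%. The step from 30 to 60 min in most members was smaller than these sizes, so a difference of that size could go undetected here. The simulated arrays were not paired by replicate number, so these shares apply to the fit without the block.

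A small group of members at the edge of the array carried the largest steps. The 6 members in block column 1, the first of 24, had nascent changes from 30 to 60 min between 0.61 and 1.501, and 5 of them held the 5 largest changes among the 56. In the other 50 members the changes lay between -0.52 and 0.87, with a median of 0.05. By replicate number the median of the 6 was 2.64, 0.66 and 0.06, so replicate 1 held most of it. At 30 min the SD of their nascent replicates had a median of 1.33, against 0.28 in the other members. The spots of that column as a whole moved the same way in the median, but less. Over the 118 spots of the column that entered the rule, the median step was 0.67, 0.09 and 0.10 by replicate number. At 30 min their nascent values differed from their own median over all nascent arrays by a median of -0.70 in replicate 1, -0.00 in replicate 2 and -0.01 in replicate 3. Nor was the pattern confined to this column. The median nascent step of the spots tended to fall across the array, from 0.32 in column 1 and 0.11 in column 2 to 0.01 in column 17 and -0.23 in column 23. The part of this trend in the median step of the members was not tested. The part of the array's edge in the S of these 6 members, which had a median of 1.01 against 0.65 in the others, was not tested.

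Both members whose nascent signal changed most downward from 120 to 240 min lay in this column. For R16 - C1 : 1, which ranked 4 in S, the nascent log2 intensity was 6.65, 5.78 and 6.11 on the 120 min arrays and 7.21, 3.48 and 4.67 on the 240 min arrays, a change of -1.06 ± 0.79 (SE, limma adjusted p = 1.00). It was -2.09 without the first 240 min array and -0.24 without the second. For R14 - C1 : 5, which ranked 3 in S, it was 6.80, 5.74 and 6.94 on the 120 min arrays and 7.44, 4.45 and 5.69 on the 240 min arrays, a change of -0.63 ± 0.80 (SE, limma adjusted p = 1.00). In each the first 240 min array was above all 120 min arrays and the others were not, so the groups overlapped. At 30 min their first arrays were the low ones, at 3.77 against 5.66 and 6.35 in the former and at 2.73 against 5.48 and 6.37 in the latter. Their first arrays were also the lowest at 0 min, a time that enters S. The values there were 3.71 against 5.74 and 4.97 in the former and 5.03 against 5.54 and 5.49 in the latter. The change of R14 - C1 : 5 was -1.41 without the first 240 min array and 0.08 without the second, so that its sign rests on that array.

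From 120 to 240 min no single member passed the test in either assay, and the members were not tested as a group. On the nascent arrays 0 of the 56 passed (limma), against 1 of 5113 spots (0.0196%), and 2 members had an interval above 0 and 0 below. The median change was -0.01 and 26 members lay above 0, and the sign of that median turned with the scaling, being 0.02 after cyclic loess and 0.04 with printing positions centred, and with single arrays, being 0.08 without the third 240 min array and 0.00 without the first or second 120 min array. On the mRNA arrays 0 of the 56 and 0 of 4882 spots (0%) passed, with 1 member at an unadjusted p under 0.05. The median was 0.03, but -0.01 when arrays were only scaled to equal medians and -0.03 without the first 120 min array. The intervals were as wide as those for 30 to 60 min, and a smaller change could not be seen.

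The late mean against 0 min is the contrast that the rule used, so its array values are given as a description. The nascent late mean lay above 0 min in 55 of the 56 members, with a median of 0.55 and a range from -0.06 to 1.84. It was past the threshold upward in 13, where 2.64% of all spots were. Against 0 min by single times, it was past the threshold upward in 2 members at 120 min (0.763% of all spots), 4 at 180 min (1.13%) and 4 at 240 min (0.724%). In a fit that blocked on replicate number these counts were 9 (2.35% of all spots), 10 (2.35%) and 10 (2.15%). All late arrays lay above all 0 min arrays in 17 members (3.79% of all spots). Leaving out a 0 min nascent array moved the 13 to 6 without the first, 1 without the second and 8 without the third, so the count rests on those 3 arrays.

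The mRNA late mean of the members ranged from -0.51 to 0.51, with a median of 0.06, and 44 of the 56 lay within 0.2 of 0. That median was -0.04 when arrays were only scaled to equal medians and -0.01 without the second 0 min array. It was past the threshold in 0 members, where 3.22% of all spots were, and in 0 of 56 were the late arrays clear of the 0 min arrays (6.68% of all spots). With the replicate number as a block, 19.8% of all spots and 1 member were past it. That member, which ranked 24 in S, had a change of 0.51 and lies outside the rule for naming. The nascent change less the mRNA change was past the threshold upward in 1 member (0.0208% of all spots), R10 - C13 : 13, and in 8 with the block (0.479%).

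**Figure D4:**
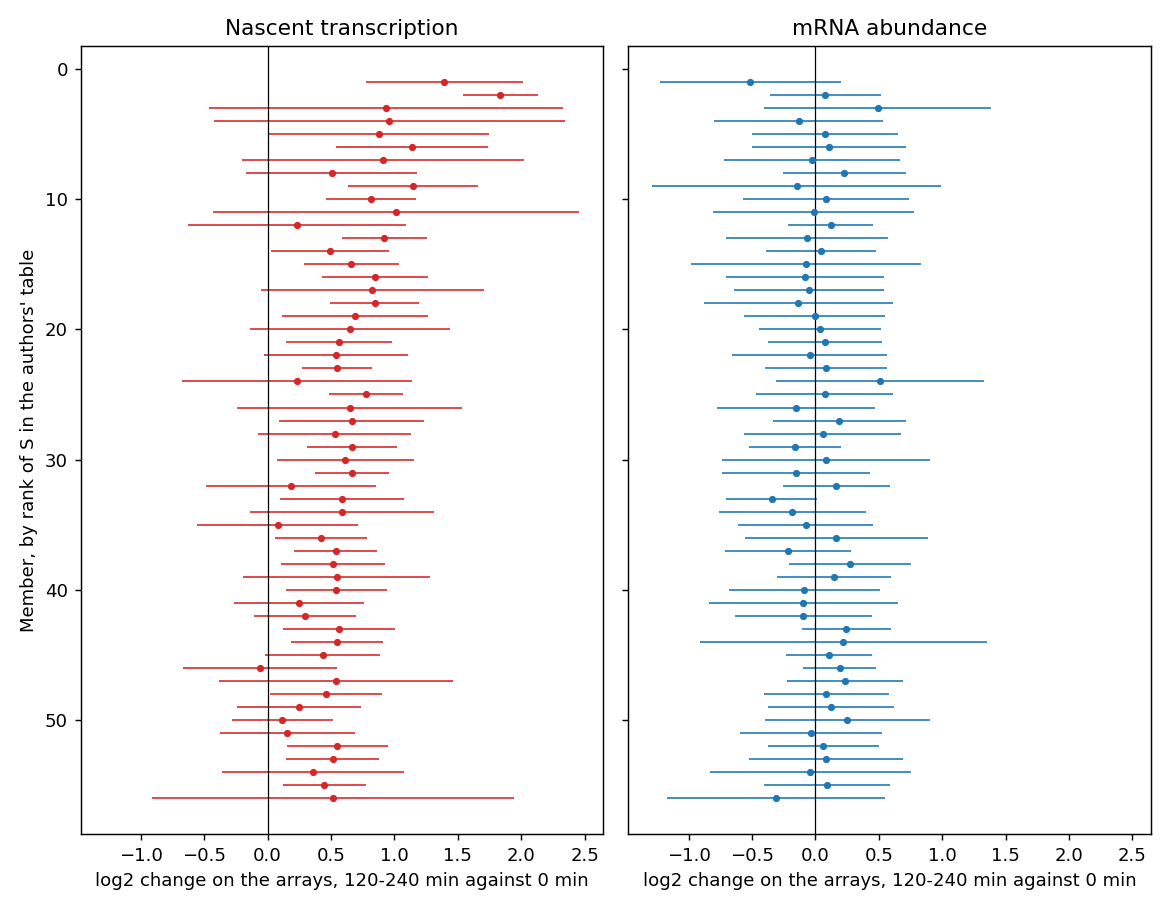
Late mean against 0 min on the arrays (log2) for each of the 56 members, ordered downward by S, on the nascent arrays (left) and the mRNA arrays (right). Points are fitted changes and bars their 95% confidence intervals. The nascent points lie above 0 in 55 members and the mRNA points lie between -0.51 and 0.51, with intervals that all include 0. The fit shown has no replicate block. With the block, 3 mRNA intervals lay above 0 and 2 below.

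The precision of a single member's mRNA change was limited. The 95% interval of a member's late mRNA change extended a median of 0.58 to either side, and 0.34 with the block. In 30 of the 56 members it reached as high as the member's own nascent change, and in 17 with the block. For those members the mRNA arrays could not tell an unchanged level from a rise as large as the nascent one. All 3 replicate numbers put the late mRNA change within 0.2 of 0 in 6 members (6.43% of all spots) and within 0.5 in 31 (39.5% of all spots). All 3 put the late nascent change above 0 in 40 members, against 21.96% of all spots.

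The replicate numbers differed in where they put the mRNA of the members. The median late mRNA change was -0.24 in replicate 1, 0.16 in replicate 2 and 0.10 in replicate 3, while the median late nascent change was 0.54, 0.62 and 0.42. The residual SD of the members was 0.376 on the nascent arrays, against 0.315 over all spots, and 0.410 against 0.439 on the mRNA arrays.

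The level of the members within each array was followed over time, with no meaning given to its size between spots. The median of the members less the median of all spots was 0.436 ± 0.182 (SD, n = 3) on the nascent arrays at 0 min, then 0.591 ± 0.104 after 30 min and 0.699 ± 0.215 after 60 min. The late times in order had 0.951 ± 0.148, 0.950 ± 0.140 and 1.00 ± 0.387 (SD, n = 3 each). The arrays at 0 and 30 min overlapped, as did those at 30 and 60 min, and all arrays from 120 min on lay above all arrays at 0 min, by little in the lowest 240 min array (0.619 against 0.612 in the highest 0 min array). On the mRNA arrays the same level was 1.00 ± 0.161 at 0 min and lay between 0.921 ± 0.119 and 1.11 ± 0.0602 at the other times (SD, n = 3 each). Neighbouring times overlapped there throughout. The rule chose the members on the late times against 0 min, so the late levels in both assays are a description of that choice.

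**Figure D5:**
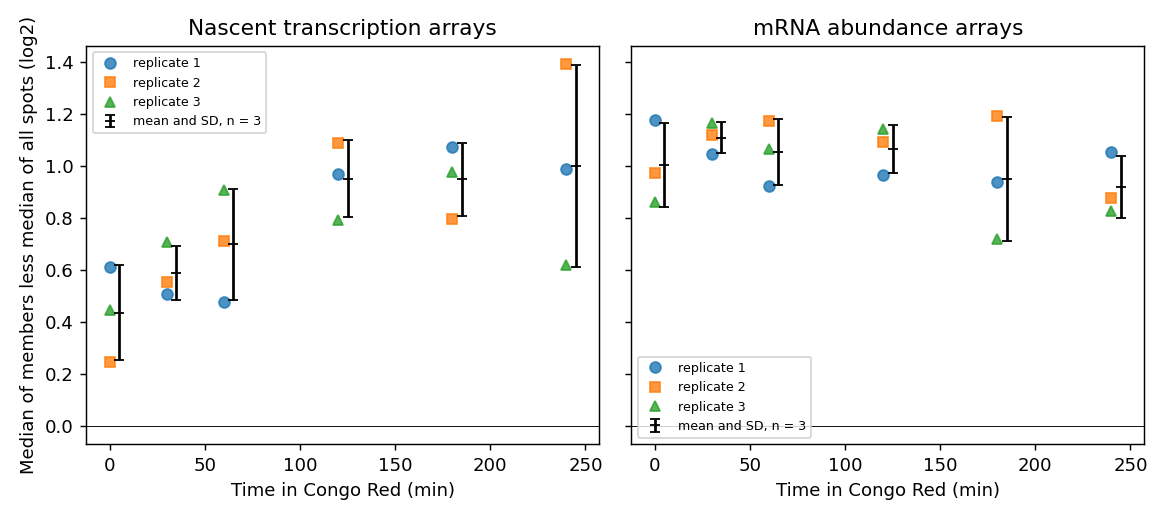
Median log2 intensity of the members less that of all spots, on each array, against time in Congo Red, for the nascent arrays (left) and mRNA arrays (right). Coloured marks are the 3 replicates and black bars are mean and SD. The nascent means go from 0.436 at 0 min to 1.00 at 240 min and the mRNA means stay between 0.921 and 1.11.

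The members were spread over the array, but not evenly. They lay in 50 of the 384 blocks, of which 6 held 2, and in 13 of the 16 printing positions. Printing position 13 held 12 of them, which is 21.4% of the members where that position holds 7.61% of the 3574 spots. All spots there had a median S of 0.13 and a median D of -0.07. Block rows 1 and 2 held 17 members, or 30.4%, against 12.03% of the 3574 spots and 22.3% of the 300 highest S. The median S over all spots of those rows was 0.22 and 0.15. Block column 1 held 6 of the 56 members, where it holds 3.30% of the 3574 spots. Whether place on the array had a part in the membership was not tested. With S and D centred within each block row the rule gave 58 spots, of which 37 were among the 56, and centred within each printing position it gave 58, of which 34 were. The rule was not repeated with centring within block columns.

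Membership also rested on how the arrays were combined and scaled. With S and D computed from the quantile normalised arrays in place of the authors' table, the rule gave 67 spots. Of the 56 members, 41 were among the 300 highest S so computed and 31 were also in the window of D. Across the members, S in the table and the late nascent change on the arrays had r = 0.80, and D and the late mRNA change had r = 0.63. Over the 3574 spots these were 0.94 and 0.92. Table and arrays hold the same measurements, so these values describe only how replicates were combined.

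The arrays behind these values had total intensities from 387129 to 1660994 in the mRNA assay and from 512224 to 1880504 in the nascent assay, with 14.9% to 18.2% of spots at 0. The mean signal of the members, which sets their precision and is no measure of RNA amount between spots, lay at a median percentile of 70.8 in the mRNA assay and 71.4 in the nascent assay. Among the members 1 value on the arrays was 0. The number of arrays limits the precision.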

How the data were processed

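mRNA abundance and nascent transcription were measured on 18 arrays each. The authors deposited 1 intensity per spot and array, with no background value; scanner and background treatment are not stated in the labels or file headers. They also deposited a table with 1 RA and 1 SR signal per spot and time, replicates combined, of unstated scale; per the series' design text, SR is the nascent rate normalised to cell volume. The members, lists and tests were chosen with earlier results of these data known.

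Intensities of 0 were set to missing. Spots with at least 2 of 3 values in every group were quantile normalised within an assay and fitted with time as a factor (limma 3.58.1, R 4.3.3), with Benjamini-Hochberg adjustment over all spots and a threshold of 0.05. The nascent and mRNA changes were compared as an interaction over 36 arrays. Changes are thus relative to the typical spot. The steps were tested on simulated data. Python 3.11.15 was used for tables and plots.

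Named spots were the 2 with the highest S and the 2 with the lowest nascent change from 120 to 240 min. The design's gene lists and gene names could not be used, since spots are not paired with genes.

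Replicate numbers come from the numbering of the array files. All 45 same-numbered pairs of mRNA arrays correlated between 0.615 and 0.846 in their deviations from group means, so the numbers paired the mRNA arrays on the evidence of the data. Of the 45 nascent pairs, 13 were at or below 0.1.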

Additional observations from a re-analysis of the deposited data

How the results depend on the processing

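The number of members was 28 with D within 0.1, 35 from the 200 highest S and 86 from the 400 highest, and with S and D from the arrays and 1 replicate number left out it ran from 57 to 77, of which 22 or 23 were among the 56. The array-based repeats, the centring within rows or positions and the values outside block column 1 were chosen after seeing the data. Members past the threshold in the late nascent mean numbered 7 with only the times compared in the fit, and from 1 to 13 with an array left out. In the late mRNA mean the replicate block gave 1. For the late nascent less mRNA change there were 2 with arrays scaled to a common median, 8 with the replicate block, and from 1 to 2 with an array left out. The replicate block, chosen after seeing the data for single times, gave 9, 10 and 10 members past the threshold upward on the nascent arrays at 120, 180 and 240 min against 0 min, where there were 2, 4 and 4. It gave 15 against 13 for the late nascent mean and again 0 for both steps between later times. The median nascent change from 120 to 240 min was 0.0181 after cyclic loess and 0.0409 with printing positions centred, and from -0.0573 to 0.0778 with an array left out. That from 30 to 60 min ran from 0.0346 to 0.1538. The change of R14 - C1 : 5 from 120 to 240 min ran from -1.4108 to 0.0754 with an array left out, the latter without the second at 240 min. R11 - C19 : 5 was no longer past the threshold in the late nascent mean with only the times compared (limma adjusted p = 0.0566), or without the first (1.05, adjusted p = 0.114) or second (1.33, adjusted p = 0.118) nascent array at 0 min, and R10 - C13 : 13 was past it in all 18 alternatives. The causes were not tested.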
